A study of Mus musculus with 13 samples.

Results

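The zinc finger genes described here were the protein-coding genes named Zfp plus a number, with or without a letter, on mouse chromosomes 7, 8, 10, 13 and 17. They were chosen by name and chromosome alone, with gene bodies under 500 kb, and 1 further gene of this name form was not analysed here. The rule found 197 gene entries under 194 symbols, of 22329 protein-coding genes that could be placed on the sat4C calls. Zfp708, Zfp738 and Zfp319 had 2 annotation entries each. Chromosome 7 held 87 of the entries, chromosome 17 held 43, chromosome 13 held 36, chromosome 8 held 26 and chromosome 10 held 5. A further 167 genes with such names lay on the other chromosomes.

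Most Zfp genes encode proteins with tandem C2H2 zinc fingers. In each finger a pair of cysteines and a pair of histidines hold a zinc ion, and the finger can read a few bases of DNA. Many of the proteins also carry a KRAB domain, which recruits the corepressor TRIM28 and, through it, the H3K9 methyltransferase SETDB1. Such genes arose by repeated local duplication and stand in clusters, several of which are known to carry H3K9me3 themselves. Chromocenters are the nuclear sites where the pericentromeric satellite repeats of mouse chromosomes, also marked by H3K9me3, come together.

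The sat4C method counted ligations between major satellite repeats and fragment ends along the chromosomes, and each fragment end was called as part of a pericentromere-associated domain (PAD) or a non-PAD. Calls were given for 4 cell types. These were thymus of adult male C57BL/6 mice (3 replicates), the embryonic stem cell (ESC) line IB10 (129/ola, 3 replicates), neural precursor cells (NPC) derived from it (2 replicates) and astrocytes (AC) derived from those NPCs (2 replicates). Each cell type had 1 column of calls made from its replicates, with no value per replicate, so every statement below describes 4 sets of calls and no test was made. Thymus differed from the other 3 in strain, in origin and in being a whole tissue of mixed cells. Its replicates were also sequenced on 2 instruments, and those of the other 3 on only 1 of these. These differences cannot be told apart here, and the 3 cultured types came from 1 line. The calls hold no expression, so the labelled cell types could not be checked against marker genes.

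The calls covered 399232 fragment ends of the mm9 genome. NPC and thymus had the same call at 53.3% of ends, while the other pairs had it at 66.4% to 77.5%. ESC and NPC were at 68.0% and ESC and thymus at 67.7%. Over all genes, NPC had the same call as ESC at 63.9%, AC at 56.7% and thymus at 42.2%. The pairs without NPC were at 67.4% to 77.8% of all genes. At the Zfp genes ESC and NPC were at 76.1%, above ESC and thymus at 61.4%. Counts of patterns over the 4 cell types are also given without NPC. A gene took the call of the fragment end nearest to the midpoint of its longest transcript, at a median of 3.43 kb for the Zfp genes and 3.87 kb for all genes. The Zfp clusters held 114 fragment ends per Mb, against 150 on the same 5 chromosomes. No end lay inside 65 of the 197 genes. The part of this lower density in the results was not tested.

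The largest cluster, on chromosome 13, shows what the calls rest on, because the borders of the ESC, AC and thymus PADs each cut through a row of related genes there. The fragment ends nearest to the ESC border and to the thymus border that began with an MfeI site are printed first, 60 bases each, on the plus strand of mm9, with the MfeI site in capitals. The ESC pair lies at chr13:67535808-67535867 and chr13:67539929-67539988, and the thymus pair at chr13:67605810-67605869 and chr13:67620058-67620117.

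ESC border, non-PAD side: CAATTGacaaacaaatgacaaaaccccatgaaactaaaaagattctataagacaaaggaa

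ESC border, PAD side: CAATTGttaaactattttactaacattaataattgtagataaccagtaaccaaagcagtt

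Thymus border, non-PAD side: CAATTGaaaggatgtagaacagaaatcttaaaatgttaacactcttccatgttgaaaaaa

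Thymus border, PAD side: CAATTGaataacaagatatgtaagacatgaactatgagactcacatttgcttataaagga

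The genes around these borders are related in coding sequence, at identities of 74.7% to 95.9% between the neighbours printed here. Printed next is the leading C2H2 finger with its linker from the coding sequence of 4 of them, 84 bases on the minus strand of mm9, with the codons of the 2 cysteines and 2 histidines in capitals. Zfp874a lies at chr13:67544002-67544085, Zfp874b at chr13:67575619-67575702, Zfp58 at chr13:67592902-67592985 and Zfp87 at chr13:67618864-67618947.

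Zfp874a: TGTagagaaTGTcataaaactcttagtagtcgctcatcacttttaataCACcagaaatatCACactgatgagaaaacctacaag

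Zfp874b: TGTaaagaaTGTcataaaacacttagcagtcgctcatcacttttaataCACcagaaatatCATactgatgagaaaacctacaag

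Zfp58: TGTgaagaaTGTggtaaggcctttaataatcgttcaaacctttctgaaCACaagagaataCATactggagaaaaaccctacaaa

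Zfp87: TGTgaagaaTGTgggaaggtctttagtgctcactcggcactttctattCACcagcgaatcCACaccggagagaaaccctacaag

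The finger of Zfp874a differed from that of Zfp874b at 4 of 84 bases, and every other pair among these differed at 21 to 29. Placed by midpoint, the 4 genes had 4 different patterns of calls. Zfp874a was non-PAD in all cell types and Zfp874b was PAD in ESC. Zfp58 was PAD in ESC and AC, and Zfp87 was PAD in ESC, AC and thymus. All 4 were non-PAD in NPC. Some of these calls changed with placement. Zfp874b lay 4.06 kb from the AC border, with 1 of its 3 fragment ends PAD in AC. Zfp58 lay 2.36 kb from the thymus border. By the majority of its 5 fragment ends, of which 3 were PAD in thymus, Zfp58 had the pattern of Zfp87. The Zfp874a call rests on its placement: its midpoint lay 8.5 bp from the ESC border on the non-PAD side, and the fragment end nearest to its printed finger was a PAD in ESC.

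The share of Zfp genes in PADs was highest in ESC, followed by NPC, AC and thymus. In ESC, 125 of the 197 genes (63.5%) were in PADs, where 46.5% of all placed protein-coding genes were. In NPC it was 118 genes (59.9%) against 68.5% of all genes. NPC was thus the cell type in which fewer Zfp genes than genes at large were in PADs. The NPC share was 67.4% without the largest cluster and 45.5% without chromosome 7. On chromosomes 7, 10 and 17 it was above that of all genes of the chromosome, and on chromosomes 8 and 13 below. In AC, 96 Zfp genes (48.7%) were in PADs against 34.9% of all genes. Without chromosome 17 the AC share was 38.3%. Of the 5 chromosomes, only chromosome 17 had an AC share of Zfp genes above that of all its genes. In thymus, 61 Zfp genes (31.0%) were in PADs against 26.1% of all genes. The thymus direction turned without chromosome 17, with 22.1% of the remaining Zfp genes in PADs, and with each cluster or single gene counted once by its majority call, with 20% of 60 such groups. Against the other 5957 genes of the same 5 chromosomes, of which 49.2% in ESC, 68.0% in NPC, 39.6% in AC and 26.8% in thymus were in PADs, the order was the same. Zfp genes of the other chromosomes were in PADs at 55.7%, 71.9%, 36.5% and 22.8%.

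**Figure D1:**
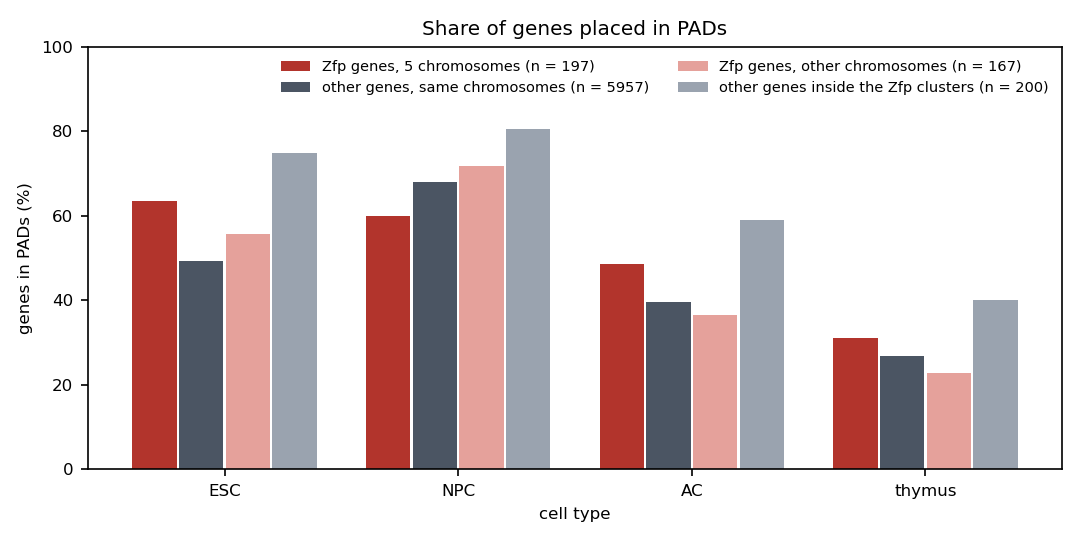
Percent of genes placed in PADs (y axis) in each cell type (x axis) for the 197 Zfp genes, the 5957 other genes of the same chromosomes, the 167 Zfp genes of other chromosomes and the 200 other genes inside the Zfp clusters; there is 1 set of calls per cell type and so no error bar. The Zfp genes stand above the other genes of their chromosomes in ESC, AC and thymus and below them in NPC, and the other genes inside the clusters stand highest in all 4, at 75.0%, 80.5%, 59.0% and 40.0%.

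In all 4 cell types the other genes inside the Zfp clusters were in PADs at a higher share than the Zfp genes there. The 23 clusters of 2 or more Zfp genes held 160 members and 200 other protein-coding genes. In ESC, 66.9% of these members and 75.0% of the other genes were in PADs. The shares were 61.3% and 80.5% in NPC, 51.9% and 59.0% in AC, and 35.0% and 40.0% in thymus. One cluster, Zfp187 to Zfp184 on chromosome 13, held 31 of the 200 other genes, all of them in ESC, NPC and AC PADs and 28 in thymus PADs. Without that cluster the shares of members and others were 66.2% and 70.4% in ESC, 60.5% and 76.9% in NPC, 51.0% and 51.5% in AC, and 34.4% and 30.8% in thymus. The other genes of the cluster spans included 26 vomeronasal and olfactory receptor genes (Vmn1r, Vmn2r and Olfr), families that also stand in tandem arrays. All 26 were in PADs of ESC, AC and thymus, where 46.5%, 34.9% and 26.1% of all genes were. In NPC 19 were in PADs (73.1%), beside 68.5% of all genes. The 26 stood in the clusters that begin with Zfp551, Zfp187, Zfp160 and Zfp871, so they are not independent observations.

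The 5 chromosomes differed. On chromosome 17 the Zfp genes were in PADs at 83.7% in ESC, 60.5% in NPC, 86.0% in AC and 62.8% in thymus, against 46.2%, 53.3%, 30.9% and 21.9% of all genes of that chromosome. On chromosome 7 the shares were 72.4%, 78.2%, 41.4% and 20.7%, against 58.4%, 69.5%, 44.9% and 29.5%. Chromosome 7 was thus above all its genes in ESC and NPC and below them in AC and thymus. Zfp genes of chromosome 8 were in PADs at 38.5%, 38.5%, 34.6% and 11.5%, below all genes of the chromosome (52.7%, 65.4%, 43.9% and 22.9%) in each cell type. Zfp genes of chromosome 13 were at 44.4%, 27.8%, 38.9% and 36.1%, also below all its genes at 55.8%, 77.2%, 50.6% and 37.6%. On chromosome 10 none of the 5 Zfp genes was in a PAD of ESC, AC or thymus, and 4 (80.0%) were in PADs of NPC, where all genes of that chromosome were at 27.5% in ESC, 26.5% in AC, 22.6% in thymus and 74.2% in NPC.

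Over the 4 cell types, 11 of the 16 possible patterns of calls occurred among the Zfp genes. PAD in all 4 was the pattern of 34 genes (17.3%; 14.8% of all genes), and non-PAD in all 4 that of 46 (23.4%; 20.1% of all genes). PAD in all 4 was below the share of all genes without chromosome 17 (13.6%) and with each group counted once (11.7%). Non-PAD in all 4 was below it without chromosome 13 (18.0%), chromosome 8 (19.9%) or the largest cluster (18.3%). PAD in ESC, NPC and AC with non-PAD in thymus was held by 35 genes (17.8%; 11.1%), and PAD in ESC and NPC only by 29 (14.7%; 12.2%). The pattern most frequent among all genes, PAD in NPC only, was held by 20 Zfp genes (10.2%; 23.9%). Another 20 were PAD in ESC, AC and thymus and non-PAD in NPC (10.2%; 2.48% of all genes, and 1.80% of the Zfp genes on other chromosomes). These 20 rest on the NPC calls and on few chromosomes: without chromosome 17 the share was 5.84%, without chromosome 7 it was 16.4%, and with each group counted once it was 6.67%. The other 5 patterns seen were held by 1 to 4 genes each. Without NPC, 54 Zfp genes (27.4%) were PAD in the other 3 cell types and 66 (33.5%) were non-PAD in them. Of all genes, 17.2% and 44.0% were, and of the Zfp genes on other chromosomes 15.6% and 40.1%. The 54 are the 34 and the 20 genes above. The shares of both were lower without chromosome 17 and with each group counted once.

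**Figure D2:**
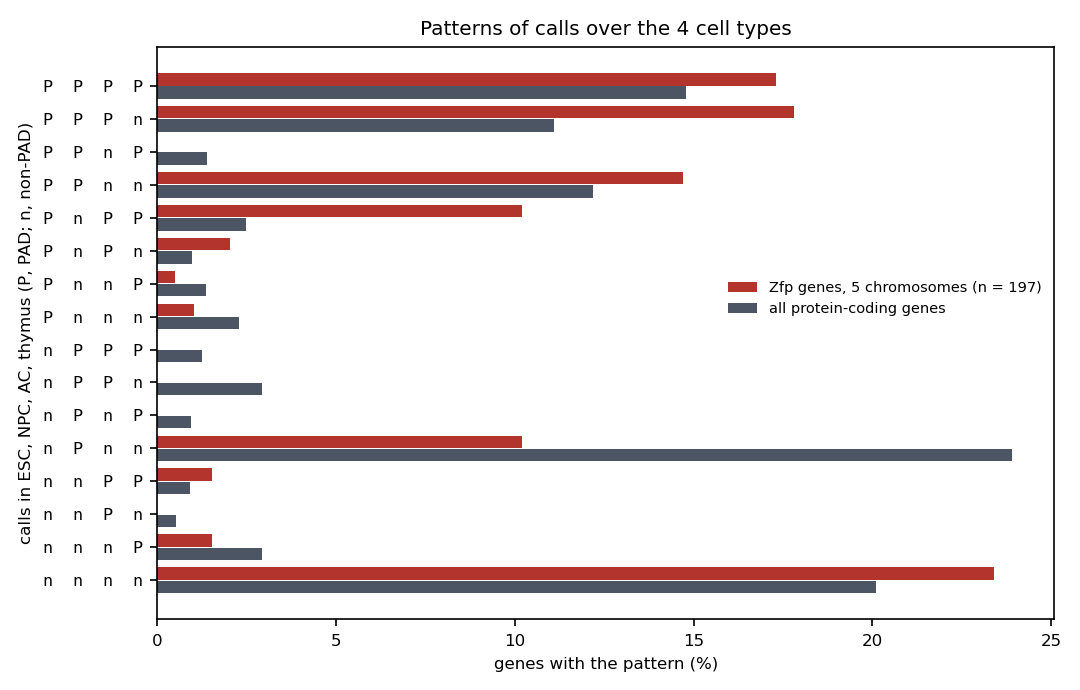
Percent of genes (x axis) with each of the 16 patterns of calls in ESC, NPC, AC and thymus (y axis, P for PAD and n for non-PAD), for the 197 Zfp genes and all placed protein-coding genes. The widest gaps are at non-PAD in NPC alone, held by 10.2% of Zfp genes and 2.48% of all genes, and at PAD in NPC alone, held by 10.2% and 23.9%.

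Between ESC and thymus, 70 Zfp genes (35.5%) were PAD in ESC and non-PAD in thymus, where 26.5% of all genes were, and 6 (3.05%) the reverse, where 6.06% of all genes were. Without chromosome 7 the first share was 21.8%, below that of all genes. The second was 1.95% without chromosome 17, 1.74% without members near a border and 1.67% with each group counted once. The 70 genes lay in 26 of the 60 groups that the members form when single genes are counted as groups. The 6 genes with the reverse were Zfp180 on chromosome 7, Zfp330 on chromosome 8, Zfp273 on chromosome 13 and Zfp947, Zfp944 and Zfp758 on chromosome 17. Of these, Zfp180, Zfp944 and Zfp758 were PAD in AC as well, and Zfp947, Zfp273 and Zfp330 were PAD in thymus only.

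Along the series from ESC to NPC and AC, calls differed in both directions. Between ESC and NPC, 27 Zfp genes were PAD in ESC only (13.7%; 7.11% of all genes) and 20 in NPC only (10.2%; 29.0%). Between NPC and AC, 49 were PAD in NPC only (24.9%; 38.4%) and 27 in AC only (13.7%; 4.89%). Between ESC and AC, where NPC plays no part, 32 genes were PAD in ESC and non-PAD in AC (16.2%; 17.2%) and 3 the reverse (1.52%; 5.62%). Those 3 were Zfp180, Zfp944 and Zfp758. Between AC and thymus, 39 were PAD in AC and non-PAD in thymus (19.8%; 15.5%) and 4 the reverse (2.03%; 6.66%). These 4 were Zfp330, Zfp493, Zfp273 and Zfp947. ESC and AC gave the same call to 82.2% of the Zfp genes, more than any other pair, and NPC and thymus to 43.7%, fewer than any other pair. The same pairs were at 77.2% and 42.2% of all genes. These comparisons share columns and are not independent of each other.

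The members formed 12 clusters of 5 or more (130 entries), 11 clusters of 2 to 4 (30 entries) and 37 single genes. Among the 23 clusters, 1 is Zfp319 on chromosome 8 with its 2 annotation entries. It is counted below as wholly PAD in NPC and wholly outside in ESC, AC and thymus. Genes of clusters of 5 or more were in PADs at 66.2% in ESC, 57.7% in NPC, 48.5% in AC and 32.3% in thymus. Those of the smaller clusters were at 70.0%, 76.7%, 66.7% and 46.7%. The single genes were at 48.6%, 54.1%, 35.1% and 13.5%. Neighbours mostly had the same calls: of 137 neighbouring pairs within clusters, 109 (79.6%) had the same pattern over the 4 cell types, and 115 (83.9%) had the same calls when NPC was left out. The pairs include those of the 2 entries of Zfp708, of Zfp738 and of Zfp319. The share among neighbouring pairs of other genes was not computed, so it is not known whether Zfp genes differ in this. Genes of a cluster often lay in 1 domain, so they are not independent observations. Of the 23 clusters, 13 were wholly in PADs and 4 wholly outside in ESC, 15 and 3 in NPC, 10 and 5 in AC, and 6 and 10 in thymus. Few clusters had another call as a whole: 4 of the 23 were wholly PAD in ESC and wholly non-PAD in thymus, and 0 had the reverse.

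**Figure D3:**
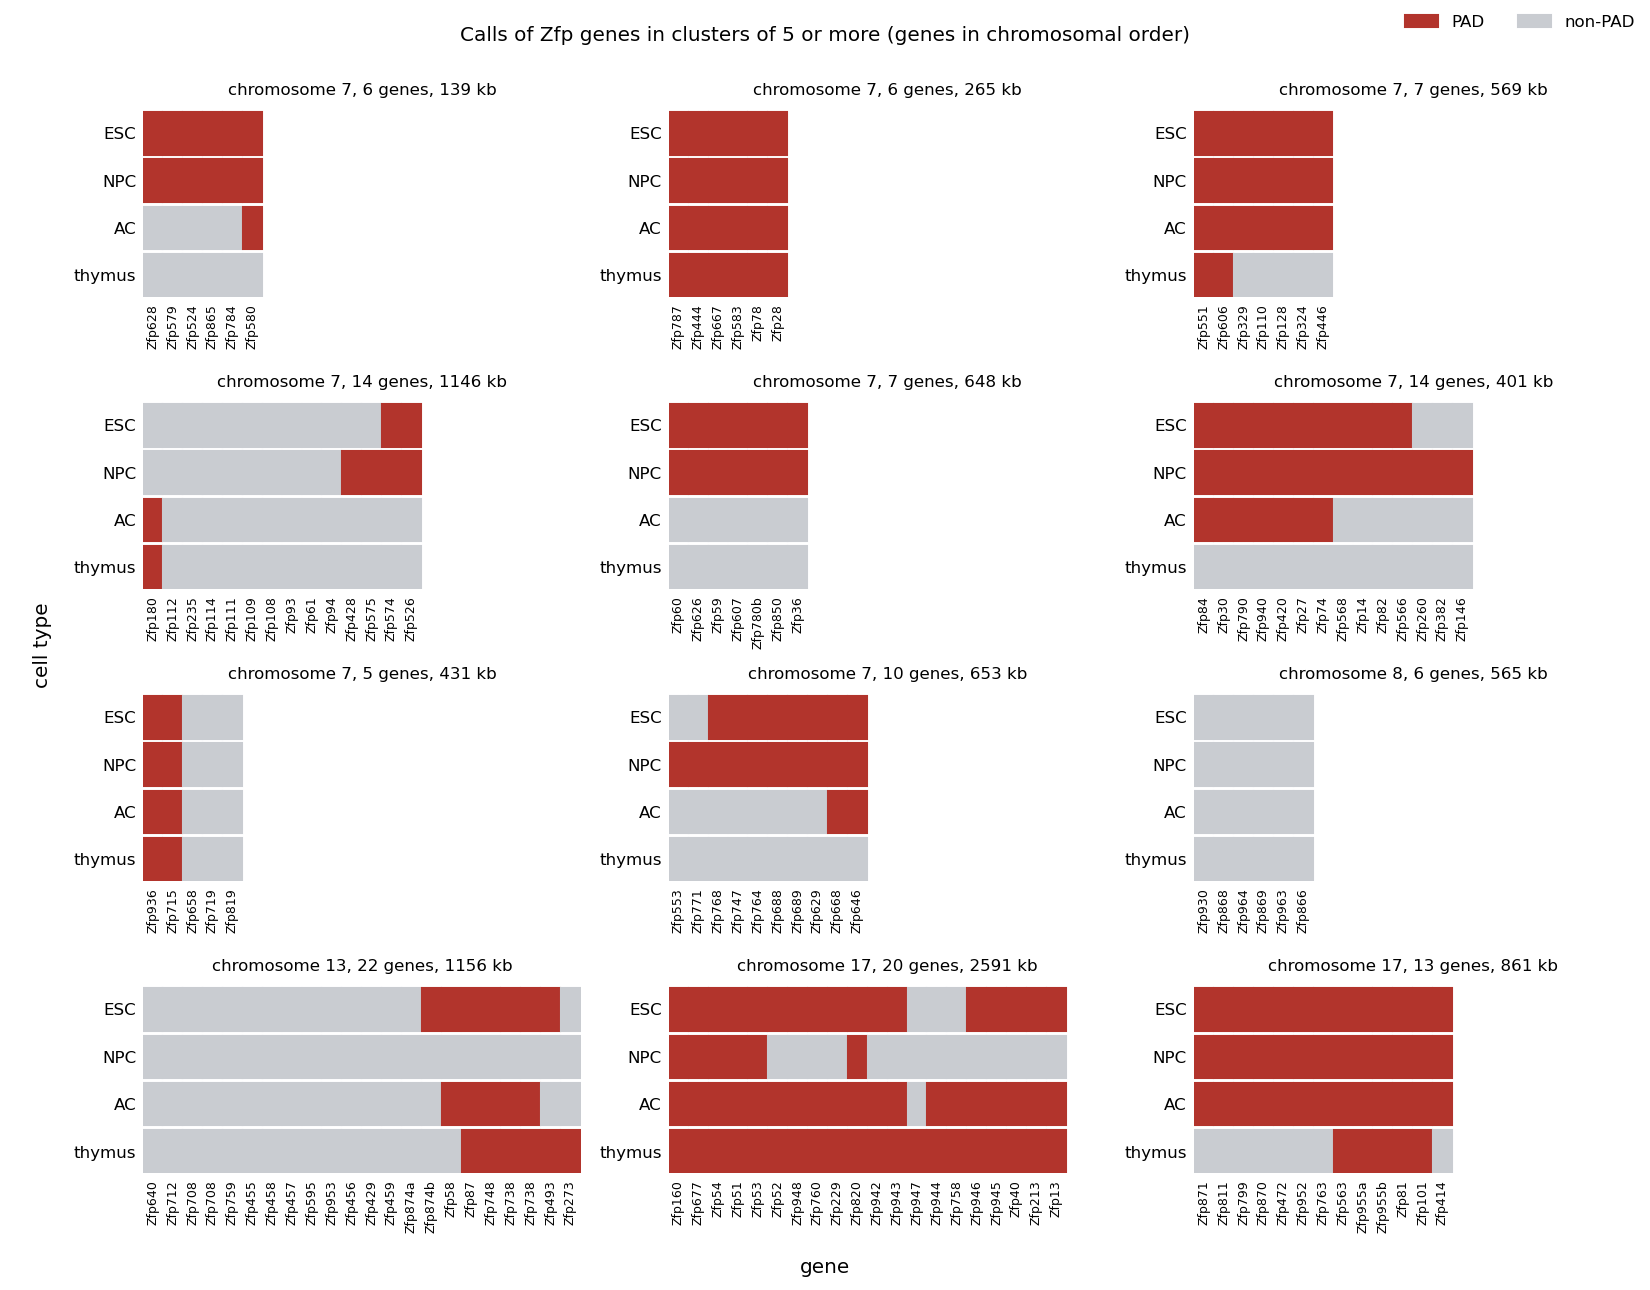
Calls (red, PAD; grey, non-PAD) of the 130 Zfp genes of the 12 clusters of 5 or more members; each panel is a cluster with its genes in chromosomal order (x axis) and the 4 cell types in rows (y axis). In 3 of the 12 clusters all genes had 1 pattern, with or without NPC, and in the others the calls changed at 1 or more points along the row of genes.

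The 3 clusters of 5 or more with 1 pattern throughout differed from each other. On chromosome 7, the 6 genes from Zfp787 to Zfp28 (chr7:6083091-6347755), 3.05 Mb from the first called fragment end, were PAD in all 4 cell types, with all 4 other genes of the span. The 7 genes from Zfp60 to Zfp36 (chr7:28516408-29164274) were PAD in ESC and NPC and non-PAD in AC and thymus, with all 15 other genes of the span. Zfp36, at the edge of that cluster, encodes tristetraprolin, an RNA-binding protein with fingers of the CCCH type, and had no C2H2 motif. On chromosome 8, the 6 genes from Zfp930 to Zfp866 (chr8:71750242-72315077) were non-PAD in all 4, with all 5 other genes.

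Chromosome 7 held 6 further clusters of that size, each cut by a border in at least 1 cell type. The 6 genes from Zfp628 to Zfp580 (chr7:4866819-5005324) were PAD in ESC and NPC and non-PAD in thymus, and in AC only Zfp580, 5.75 kb inside a PAD of 11278 kb, was PAD. The 7 genes from Zfp551 to Zfp446 (chr7:13000502-13569658) were PAD in ESC, NPC and AC. In thymus, Zfp551 and Zfp606 were PAD, and Zfp329, Zfp110, Zfp128, Zfp324 and Zfp446 lay in a non-PAD of 593 kb. Zfp110 encodes NRIF, a protein that binds the p75 neurotrophin receptor. The 14 genes from Zfp84 to Zfp146 (chr7:30553571-30954746) were PAD in NPC and non-PAD in thymus throughout. In ESC the last 3, Zfp260, Zfp382 and Zfp146, were non-PAD. In AC the border fell farther left, and Zfp84 to Zfp74 (7 genes) were PAD while Zfp568 to Zfp146 were non-PAD. Zfp568, a KRAB zinc finger repressor needed in early development, was thus PAD in ESC and NPC and non-PAD in AC and thymus.

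In the 10 genes from Zfp553 to Zfp646 (chr7:134376575-135029510) NPC again was PAD and thymus non-PAD throughout. Zfp553 and Zfp771 were non-PAD in ESC, and Zfp668 and Zfp646 were the 2 genes PAD in AC. The 14 genes from Zfp180 to Zfp526 (chr7:24866943-26012526) were mostly outside PADs. Zfp574 and Zfp526 were PAD in ESC, these with Zfp428 and Zfp575 were PAD in NPC, and Zfp180, at the other end, was the gene PAD in AC and thymus. Of the 29 other genes of that span, 27 were PAD in NPC, against 4 of the 14 Zfp genes. The NPC calls there split by position. The Zfp genes up to Zfp94 lay in a non-PAD of 6843 kb and those from Zfp428 on in a PAD of 1569 kb. The NPC counts thus reflect on which side of that border genes lay. In ESC 3 of the 29 other genes were PAD. Of the 5 genes from Zfp936 to Zfp819 (chr7:50442540-50873655), Zfp936 and Zfp715 were PAD in all 4 cell types and Zfp658, Zfp719 and Zfp819 non-PAD in all 4.

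The largest cluster, 22 gene entries from Zfp640 to Zfp273 over 1156 kb on chromosome 13 (chr13:66771705-67927937), was non-PAD in NPC throughout, inside a non-PAD of 7279 kb. In the other 3 cell types a PAD began near its distal end, at a different point in each. The 14 entries from Zfp640 to Zfp874a were non-PAD everywhere. The ESC border was at 67539886, the AC border 42.99 kb farther and the thymus border 72.06 kb farther than the ESC border. Zfp874b was PAD in ESC, Zfp58 in ESC and AC, and Zfp87, Zfp748 and both Zfp738 entries in ESC, AC and thymus. At the far end, the AC and ESC PADs closed again. Zfp493 was PAD in ESC and thymus and Zfp273 in thymus. The ESC PAD here was 367 kb long with 41 fragment ends and the AC PAD 297 kb with 34, while the thymus PAD was 1761 kb with 195. Of the 16 other genes in the span, 6 were PAD in ESC, 0 in NPC, 6 in AC and 6 in thymus.

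**Figure D4:**
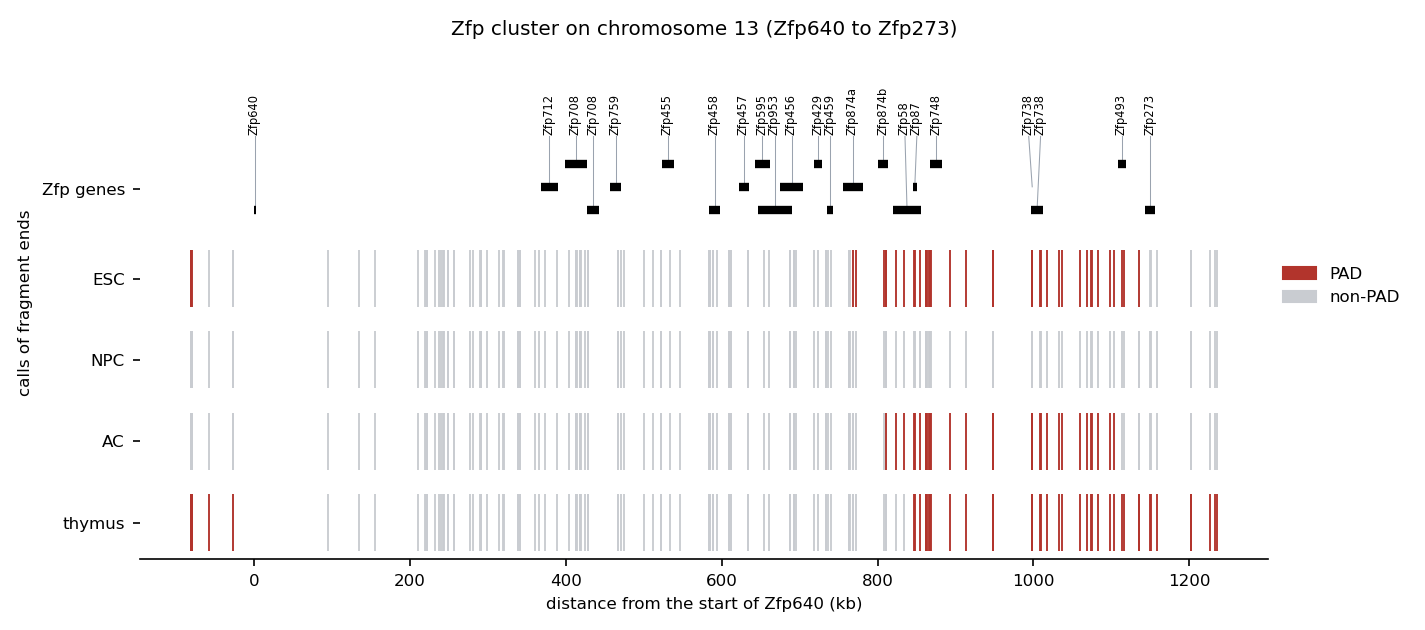
Map of the chromosome 13 cluster: x axis, distance in kb from the start of Zfp640; black bars, longest transcripts of the Zfp genes; lower rows, fragment ends called PAD (red) or non-PAD (grey) in each cell type. PADs begin right of the middle in ESC, then AC, then thymus, the thymus border 72.06 kb from the ESC border, and no end in the span is PAD in NPC.

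Several genes at these borders changed call with the way they were placed. By transcription start site, 7 of the 197 genes took another call in at least 1 cell type: Zfp260, Zfp629, Zfp423, Zfp874a, Zfp874b, Zfp58 and Zfp563. When any overlap with a PAD counted, 6 did, with Zfp942 the further gene among them. By the majority of fragment ends in the body 3 did, which were Zfp180, Zfp58 and Zfp942. Zfp58 and Zfp87 also overlap each other in the annotation. The body of Zfp874a held 7 fragment ends, of which 2 were PAD in ESC. In all, 25 genes lay under 20 kb from a border of some cell type.

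The second largest cluster, 20 genes from Zfp160 to Zfp13 over 2591 kb on chromosome 17 (chr17:21145905-23736454), was PAD throughout in thymus, inside a PAD of 8112 kb that also held Zfp960 and Zfp97 (22 genes in all). In ESC, Zfp947, Zfp944 and Zfp758 were non-PAD, in a gap of 254 kb with 33 fragment ends between PADs of 7720 kb and 1277 kb. In AC only Zfp947 was non-PAD, in a gap of 41.2 kb with 9 fragment ends. In NPC, 6 of the 20 were PAD, which were Zfp160, Zfp677, Zfp54, Zfp51 and Zfp53 at the start of the cluster and Zfp820, the only member in a PAD of 156 kb with 21 ends. The 25 other genes of the span were PAD in ESC, AC and thymus without exception, and 10 of them were PAD in NPC. They included 4 Vmn1r genes, PAD in all 4 cell types, and the 7 genes Vmn2r111 to Vmn2r117, non-PAD in NPC and PAD in the others, the same as the Zfp genes beside them. Of the 20 Zfp genes with that pattern, 11 were in this cluster.

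**Figure D5:**
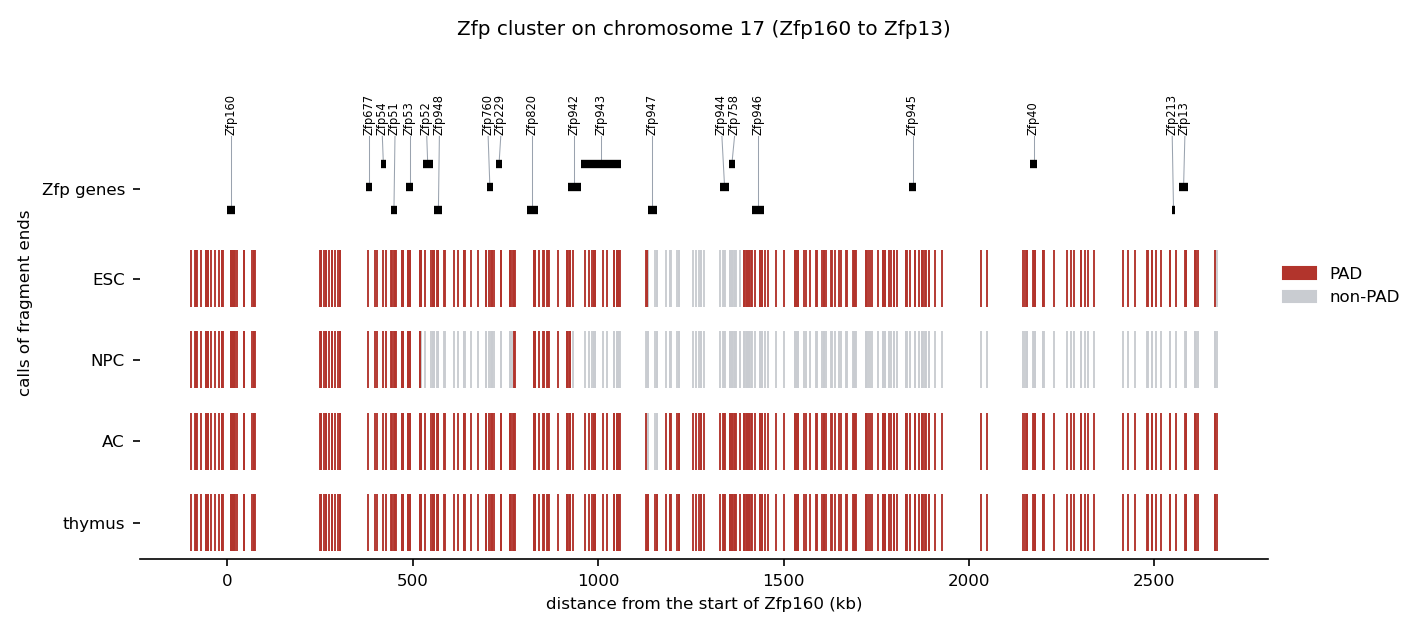
Map of the chromosome 17 cluster: x axis, distance in kb from the start of Zfp160; black bars, longest transcripts of the Zfp genes; lower rows, fragment ends called PAD (red) or non-PAD (grey) in each cell type. Thymus is PAD throughout, ESC has a gap of 254 kb and AC one of 41.2 kb at Zfp947, and NPC is PAD near Zfp160 to Zfp53 and at Zfp820.

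The other large cluster of chromosome 17, from Zfp871 to Zfp414 (13 genes, chr17:32908181-33768724), was PAD in ESC, NPC and AC. In thymus a PAD of 342 kb held Zfp563, Zfp955a, Zfp955b, Zfp81 and Zfp101, and the 8 genes around them were non-PAD. Among the 12 other genes of the span, 12 were PAD in ESC, NPC and AC and 7 in thymus.

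Neighbours in clusters of 5 or more were related in coding sequence, with a median identity of 71.4% over 118 pairs (63.2% to 98.2%). The 95 pairs with the same pattern had a median of 71.4% and the 23 pairs with another pattern 69.9%. Without NPC, the 99 pairs with the same calls had 71.6% and the 19 others 69.0%. Zfp955a and Zfp955b, at 98.2%, were PAD in all 4 cell types, and Zfp456 and Zfp429, at 95.9%, were non-PAD in all 4. Zfp874a and Zfp874b, also at 95.9%, and Zfp493 and Zfp273, at 89.1%, had different calls in ESC. For such pairs, reads may not map uniquely over the genes themselves. The effect of this on the calls was not tested.

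Some domains held many members at once. In ESC, a PAD of 13718 kb at the start of chromosome 7 held 24 Zfp genes, from Zfp628 to Zfp541, and another PAD of 3984 kb held 18, from Zfp60 to Zfp566. In AC, a PAD of 11278 kb held 18, from Zfp580 to Zfp446. In NPC, a PAD of 4148 kb held all 21 genes from Zfp60 to Zfp146, which in thymus lay in a single non-PAD of 4294 kb. The 125 Zfp genes in ESC PADs lay in 27 domains, the 118 in NPC PADs in 32, the 96 in AC PADs in 26 and the 61 in thymus PADs in 13.

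The PADs that held Zfp genes had a median size, per gene, of 3640 kb in ESC, 4148 kb in NPC, 1660 kb in AC and 8112 kb in thymus. All genes in PADs had medians of 2277 kb, 3618 kb, 2519 kb and 2729 kb. The thymus value is that of the chromosome 17 PAD with 22 members. The distance from a Zfp gene in a PAD to the nearest border had a median of 563 kb in ESC, 750 kb in NPC, 486 kb in AC and 874 kb in thymus. The farthest were Zfp628 in ESC at 11885 kb, Zfp280b in NPC at 5278 kb, Zfp551 in AC at 3272 kb and Zfp160 in thymus at 2698 kb. The closest were Zfp574 in ESC at 7.76 kb, Zfp318 in NPC at 8.98 kb, and Zfp180 in AC at 4.12 kb and in thymus at 2.06 kb.

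Among the single genes, 2 were PAD in all 4 cell types, Zfp788 and Zfp141 on chromosome 7, and 10 were non-PAD in all 4. The 10 included Zfp296, Zfp473, Zfp358, Zfp791, Zfp365, Zfp367, Zfp369, Zfp366 and Zfp57. Zfp57, which with TRIM28 maintains the methylation of imprinted regions, lay in the smallest ESC non-PAD that held a member, 91.3 kb with 17 fragment ends, and in an AC non-PAD of 71.8 kb with 12. In NPC and thymus its non-PADs were 1273 kb and 3848 kb long. Of the 37 single genes, 5 were PAD in thymus: Zfp788, Zfp141, Zfp958, Zfp353 and Zfp330.

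Other well-studied members had different patterns. Zfp90 on chromosome 8 was PAD in ESC, NPC and AC and non-PAD in thymus. Zfp423, a factor of neural and fat cell development, had the same pattern, but its body of 298 kb held both calls: of 49 fragment ends, 30 were PAD in ESC, 30 in NPC, 33 in AC and 0 in thymus. Zfp536, a repressor of neuronal differentiation on chromosome 7, was PAD in ESC and NPC, with 31 of 45 ends PAD in ESC and all 45 in NPC, and 0 of 45 in AC and thymus. By the span of all its transcripts Zfp536 took another call. Zfp143, a factor bound at many promoters, was PAD in ESC and NPC and non-PAD in AC and thymus, in a thymus non-PAD of 27563 kb. Zfp617 and Zfp961, in a cluster of 4 on chromosome 8, were non-PAD in all cell types.

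The number of C2H2 motifs was not part of the rule. It was counted in the longest annotated coding sequence of each gene, translated in the reading frame with the most motifs. Its median was 11 (0 to 33). In thymus, 8.33% of the 12 genes with under 3 motifs were in PADs, 19.5% of the 41 with 3 to 8, 35.6% of the 73 with 9 to 12, 43.2% of the 37 with 13 to 16 and 29.4% of the 34 with over 16. In ESC the same classes were at 41.7%, 63.4%, 60.3%, 73.0% and 67.6%. In AC they were at 16.7%, 43.9%, 49.3%, 62.2% and 50.0%. In NPC they were at 58.3%, 65.9%, 61.6%, 51.4% and 58.8%. The class of 13 to 16 was highest in thymus, ESC and AC and lowest in NPC. The order of the other classes differed between the cell types. Genes of a cluster share domains, so these shares rest on fewer regions than genes.

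The Zfp genes had many genes near them, with the other Zfp genes counted. Within 500 kb of their midpoints they had a median of 29 other protein-coding genes, against 15 for all genes. Members of a cluster count each other here, and the part of this in the median was not tested. Those in thymus PADs had 22 and those in thymus non-PADs 32, where all genes had 11 and 17. In ESC the Zfp genes inside and outside PADs had 28 and 31.5, and in NPC both had 29. Gene bodies had a median of 13.2 kb, against 15.3 kb for all genes.

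The genes for the TRIM28 pathway, through which KRAB zinc finger proteins act, were taken as a list of 18. Of these, 10 were PAD in ESC (55.6%), 14 in NPC (77.8%), 2 in AC (11.1%) and 1 in thymus (5.56%), beside 46.5%, 68.5%, 34.9% and 26.1% of all genes. Trim28 itself lay just beyond Zfp446 on chromosome 7 (chr7:13609501-13616384) and was PAD in ESC, NPC and AC and non-PAD in thymus, the same calls as Zfp446. Setdb1, its methyltransferase partner, was PAD in ESC and NPC. Atf7ip, which stabilizes SETDB1, and Suv39h1, another H3K9 methyltransferase, were non-PAD in all 4. Cbx5, which encodes the H3K9me3 reader HP1 alpha, was PAD in ESC and NPC. Cbx1 and Cbx3, which encode HP1 beta and HP1 gamma, were PAD in NPC only. The gene PAD in thymus was Suv39h2.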

How the data were processed

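The authors sequenced sat4C libraries of 13 samples, thymus replicates on 2 instruments and the others on 1 of these. Reads were mapped to fragment ends of mm9. Coverage in 5 classes entered a hidden semi-Markov model with 2 states for each replicate, and the authors deposited 1 majority call (PAD or non-PAD) per end and cell type, with pooled reads breaking ties (possible in NPC and AC, which had 2 replicates). Those deposited calls were the only values used; depth is not in them, so no counting interval is given.

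Genes came from GENCODE vM1 (22380 protein-coding, 22329 placed). Domains were runs of ends with 1 call, with borders midway between ends. Zfp genes under 500 kb apart, end to start, formed a cluster. C2H2 motifs (cysteines 2 to 4 residues apart, 12 residues, histidines 3 to 5 apart) were counted in translated GENCODE coding sequences, and neighbours were aligned with Biopython 1.88. Starts of 45985 of 91959 ends on the 5 chromosomes lay on an MfeI site and of 43996 on an NlaIII site. Scripts (Python 3.11.15, pandas 2.3.3) were tested on simulated calls. The members, lists and alternatives were chosen with earlier results of these data known. Named genes were cluster ends, members off their cluster's majority, reverse changes, single genes with 1 call throughout, known genes, border extremes and those that moved with placement.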

Additional observations from a re-analysis of the deposited data

How the results depend on the processing

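No paired analysis was possible because each cell type has 1 column of calls and no result comes from a test. The 9 shares of members reported by cell type, pattern and change were recomputed under 17 alternatives, of which 2 (1 entry per symbol, members near a border left out) were chosen after seeing the data. Of 153 values, 139 stayed inside the 95% Wilson interval of the reported share. Every placement alternative was among these. That interval treats the 197 genes as independent, which genes of a cluster are not. It served only as a yardstick for the alternatives and is no measure of error. Leaving out chromosome 7 gave 56.4% of members in PADs of ESC, 45.5% in NPC and 39.1% in thymus, 21.8% PAD in ESC and non-PAD in thymus, below the 26.5% of all genes, and 16.4% non-PAD in NPC alone. Leaving out chromosome 17 gave 38.3% in PADs of AC, 22.1% in thymus, below the 26.1% of all genes, and 5.84% non-PAD in NPC alone. Leaving out chromosome 13 or the largest cluster gave 67.1% and 67.4% in PADs of NPC. With each of the 60 groups counted once, ties as non-PAD, 41.7% were in PADs of AC, 20% in thymus (also below all genes), 11.7% in all 4 cell types and 6.67% non-PAD in NPC alone. Against the other genes inside the clusters in place of all genes, the difference in percentage points turned from 16.9 to -11.5 in ESC, 13.8 to -10.3 in AC and 4.90 to -9.04 in thymus, and moved from -8.56 to -20.6 in NPC. These set all 197 members, 37 of them outside any cluster, against genes inside clusters. Of the 160 members in clusters 35.0% were in thymus PADs against 40.0% of the other genes there, and without the Zfp187 to Zfp184 cluster 34.4% against 30.8%, so that the turn does not hold in thymus. In AC the shares without it were 51.0% and 51.5%. Joining members under 250 or 1000 kb left the counts of clusters within 1.5 times. With 1 consensus per cell type, none of these shares has a replicate error. The fragment ends limit the resolution: 10 midpoints lay over 20 kb from an end.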
